A study of Rattus norvegicus with 48 samples.

Results

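Steroid hormones are made outside the ovary and the adrenal gland as well as in them, and the genes described here encode 10 proteins of that local chemistry, taken as the rows of the retina and posterior eye count tables with the symbols Star, Tspo, Cyp11a1, Cyp19a1, Srd5a1, Hsd17b4, Hsd17b10, Hsd17b11, Hsd17b12 and Hsd11b1. All 10 were among the 32883 genes of each table. RNA was counted in 48 libraries, 1 of retina and 1 of posterior eye from each of 24 female Long-Evans rats, a pigmented outbred strain. Posterior eye is the submitters' name for the tissue other than retina, and its counts were deposited as a scleral table. The 4 groups of 6 animals were aged OVX, aged sham, young OVX and young sham. OVX is ovariectomy, the surgical removal of the ovaries, and sham animals had the surgery without it. Aged animals, which the submitters call middle-aged, were 9 to 10 months old and young animals 3 to 4 months old. All animals were female and of a single strain, the labels name no hormone treatment, and the time between surgery and dissection is not given in the sources used here. Each library came from a separate animal within its tissue, so the spread within a group is a spread between animals, and libraries were numbered in group order, so order of handling and group cannot be told apart.

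Steroid synthesis starts when cholesterol is carried into the mitochondrion, where the side-chain cleavage enzyme turns it into pregnenolone. Later enzymes in the endoplasmic reticulum and other compartments turn pregnenolone into progestins, androgens, oestrogens and glucocorticoids. Tissues without their own supply of precursor can still convert circulating steroids, and the reductases and hydroxysteroid dehydrogenases set how much active hormone a cell meets. Several of these dehydrogenases are also known for work on fatty acids or mitochondrial metabolism, so their RNA is not a readout of steroid turnover alone. In the retina and brain such local products are often called neurosteroids.

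Posterior eye libraries held 11470945 to 22971367 counts each, and retina libraries 12916146 to 30737547. Levels are CPM, edgeR's counts relative to the scaled library total, either on the scale of 1 tissue or, where gene levels are compared between tissues, on a scale shared by both. Summed marker levels are always on the scale of their own tissue. Transcript lengths were not used, so levels are compared between samples and not between genes. The posterior eye libraries were of mixed tissue: summed markers ran from 3471 to 17122 CPM for skeletal muscle, from 63.7 to 30680 for rods and from 20.2 to 2188 for the lipid genes of sebaceous, meibomian and Harderian glands. Retina libraries held summed rod markers of 78229 to 94961 CPM, with lens markers of 3119 to 54031 CPM beside them. A total of 9 of the 10 genes passed the filter on low counts in each tissue, and Cyp19a1 did not in either. With edgeR's quasi-likelihood test and Benjamini-Hochberg adjustment over all genes tested, none of the 9 was called at an adjusted p under 0.05 in any contrast of surgery or age, in either tissue, and all 9 were called between the tissues.

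Promoter sequence was at hand for 6 of the 10 genes in the RefSeq table of build GRCr8, as 250 bases before and 50 after each gene's start. It is shown for Cyp11a1, the gene of the entry step, and for Srd5a1 and Hsd17b12, whose highest posterior eye levels were both in the library of young sham animal 6. The letters AGGTCA, the half-site that nuclear receptors such as the steroidogenic factors bind, are in capitals for Cyp11a1. The letters GGGCGG, a GC box, are in capitals for Srd5a1, where CCGCCC is the same motif on the opposite strand, and the letters CCAAT are in capitals for Hsd17b12.
Cyp11a1 promoter, chr8:67318415-67318714, plus strand: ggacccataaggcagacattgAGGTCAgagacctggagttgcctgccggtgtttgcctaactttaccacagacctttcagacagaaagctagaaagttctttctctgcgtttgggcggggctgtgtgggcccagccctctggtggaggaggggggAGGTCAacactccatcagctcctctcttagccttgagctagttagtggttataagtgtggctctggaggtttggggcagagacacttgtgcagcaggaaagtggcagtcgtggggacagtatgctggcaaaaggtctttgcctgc
Srd5a1 promoter, chr1:35514664-35514963, plus strand: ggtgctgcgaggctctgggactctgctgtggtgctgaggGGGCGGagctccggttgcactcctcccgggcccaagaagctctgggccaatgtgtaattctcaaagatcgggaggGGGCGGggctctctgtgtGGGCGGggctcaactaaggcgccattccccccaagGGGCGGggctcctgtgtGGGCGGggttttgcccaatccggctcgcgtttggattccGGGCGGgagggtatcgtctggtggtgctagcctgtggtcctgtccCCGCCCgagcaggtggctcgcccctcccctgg
Hsd17b12 promoter, chr3:100568849-100569148, minus strand: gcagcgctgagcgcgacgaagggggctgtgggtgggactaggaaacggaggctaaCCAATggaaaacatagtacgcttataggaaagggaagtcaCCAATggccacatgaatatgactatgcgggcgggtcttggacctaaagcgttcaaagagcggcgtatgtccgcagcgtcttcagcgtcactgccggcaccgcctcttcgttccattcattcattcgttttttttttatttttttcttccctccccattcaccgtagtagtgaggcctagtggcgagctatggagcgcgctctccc

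Each motif was searched on both strands, and a match is a description of the letters only. AGGTCA was in 2 of the 6 promoters, those of Cyp11a1 and Hsd17b4, against 16.2% of 33469 rat promoter windows of the same length. In Cyp11a1 it starts at -229 and at -95 from the gene's start. GGGCGG was in 5 of the 6, against 33.1% of all windows, and Srd5a1 alone held 7 copies. CCAAT was in 4 of the 6, against 37.5%. TATAAA was in none of the 6, against 14.2%, and the oestrogen response element, GGTCA and TGACC with 3 bases between, whose GGTCA overlaps the half-site letters, was in none of the 6, against 0.0269%.

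The sharpest pattern in the data was between tissues. Relative to retina of the same animals, posterior eye had far more RNA of Tspo, a cholesterol-binding protein of the outer mitochondrial membrane, and of Hsd11b1, the reductase that regenerates active glucocorticoid, and more of Hsd17b10 and Hsd17b4. It had less of Star, which carries cholesterol into mitochondria, of Cyp11a1, the side-chain cleavage enzyme, and of Hsd17b11, Hsd17b12 and Srd5a1. So 4 genes were higher and 5 lower in posterior eye, where 47.8% of the 17153 genes tested were called higher in posterior eye and 45.2% higher in retina. With most genes differing, a call between tissues is the usual case and the sizes carry the description. In these bulk samples fewer cells of a type and less RNA per cell cannot be told apart.

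Tspo ran from 150.4 to 424.3 CPM in posterior eye, with a mean of 305.9 ± 70.7, and from 2.58 to 7.12 CPM in retina, with a mean of 4.97 ± 1.13 (SD, n = 24 each; shared scale). Every posterior eye library was above every retina library, and the fitted difference was 61.4-fold, or 5.94 ± 0.11 on the log2 scale (SE; adjusted p = 2.95e-38). Tspo is the target of ligands used to image activated microglia. Summed markers of macrophages and microglia ran from 290.5 to 598.9 CPM in posterior eye and from 51.5 to 71.04 CPM in retina, and their part in the Tspo difference was not tested.

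Hsd11b1 ran from 10.8 to 141.9 CPM in posterior eye and from 0.361 to 1.30 CPM in retina. The means were 41.8 ± 34.98 CPM in posterior eye and 0.725 ± 0.244 CPM in retina (SD, n = 24 each), a difference of 53.2-fold, 5.73 ± 0.29 on the log2 scale (adjusted p = 1.98e-22). The ranges were far apart, and the spread within posterior eye was wide. H6pd, which supplies the cofactor that lets Hsd11b1 act as a reductase, was also higher in posterior eye, at 25.7 CPM against 5.86 CPM in retina (2.13 ± 0.08, higher in 24 of 24 animals). Hsd11b2, the enzyme that inactivates glucocorticoid, had 1.41 CPM in posterior eye and 1.40 CPM in retina, a difference of 0.02 ± 0.22 that was not called. Fibroblast markers summed to 4123 to 8929 CPM in posterior eye and 14.6 to 49.9 CPM in retina, and adipocyte markers to 39.2 to 238 CPM and 0.422 to 2.01 CPM in the same order, with Lep and Pck1 at 0 in every retina library. The part of these cells in the Hsd11b1 difference was not tested.

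Among the 17-beta hydroxysteroid dehydrogenases, members split. Hsd17b10, a mitochondrial dehydrogenase that also serves in isoleucine breakdown and tRNA processing, averaged 10.9 ± 2.65 CPM in posterior eye and 1.85 ± 0.528 CPM in retina, 2.56 ± 0.11 higher on the log2 scale and higher in 24 of 24 animals. Hsd17b4, the peroxisomal multifunctional enzyme of fatty acid breakdown that also oxidises oestradiol, averaged 77.3 ± 11.1 CPM in posterior eye and 52.4 ± 2.90 CPM in retina (0.56 ± 0.04, 24 of 24 animals). Hsd17b11, a lipid droplet enzyme that acts on androgens, averaged 51.2 ± 7.64 CPM in posterior eye and 95.7 ± 3.91 CPM in retina, with every posterior eye library below every retina library (-0.91 ± 0.05). Hsd17b12, a reductase of fatty acid elongation that in human cells also turns oestrone into oestradiol, averaged 76.5 ± 21.8 CPM in posterior eye and 111.2 ± 5.76 CPM in retina (-0.55 ± 0.07), and its posterior eye level was the higher one in 3 of 24 animals.

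The entry genes had few reads in both tissues. Star ran from 0.647 to 2.41 CPM in posterior eye and from 2.20 to 4.68 CPM in retina, and no animal had more in posterior eye (log2 difference -1.20 ± 0.11, adjusted p = 1.76e-13). Cyp11a1 ran from 0.168 to 1.60 CPM in posterior eye and from 0.907 to 2.30 CPM in retina, and was higher in posterior eye in 2 of 24 animals (-1.09 ± 0.16, adjusted p = 3.11e-08). Srd5a1, the reductase that turns testosterone into dihydrotestosterone, averaged 12.0 ± 4.54 CPM in posterior eye and 16.0 ± 2.37 CPM in retina (-0.44 ± 0.11, higher in posterior eye in 4 of 24 animals).

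**Figure D1:**
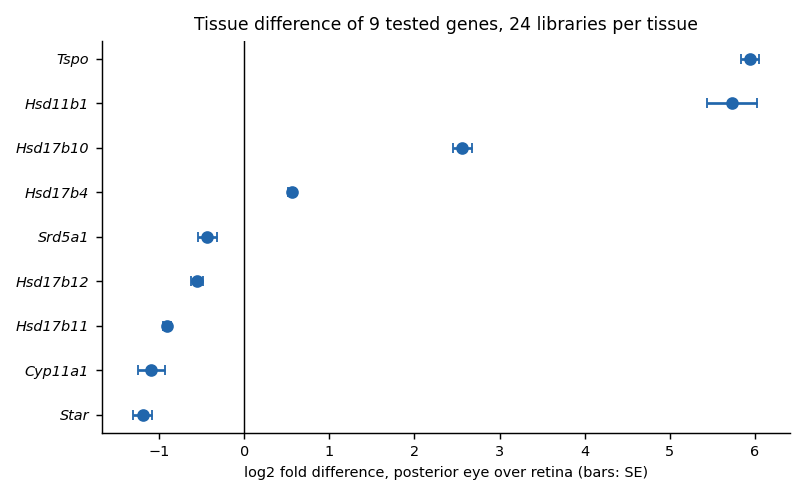
Each point is the log2 fold difference of posterior eye over retina for 1 of the 9 tested genes, with its SE as a bar, from the fit over 48 libraries; the vertical line is at 0. Tspo at 5.94 and Hsd11b1 at 5.73 stand far to the right, Hsd17b10 at 2.56 and Hsd17b4 at 0.56 are also above 0, and the 5 others lie between -1.20 and -0.44.

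Cyp19a1, aromatase, which makes oestrogens from androgens, was almost without reads. Its counts summed to 24 over the posterior eye libraries, of which 12 were at 0, and to 27 over the retina libraries, of which 11 were at 0. In posterior eye the 6 libraries of a group summed to 7 counts in aged OVX, 1 in aged sham, 7 in young OVX and 9 in young sham animals. In retina the sums were 6 in aged OVX, 2 in aged sham, 8 in young OVX and 11 in young sham animals. The highest library had 5 counts in either tissue. The sums were lowest in aged sham animals in both tissues. They are given as counts only, because Cyp19a1 did not pass the filter and has no test here.

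The other steroid genes of a wider pathway list were read in the same fit. Of 52 genes 48 were in the tables and 37 were tested between tissues, with 25 called higher and 8 lower in posterior eye. Their median log2 difference was 1.07, against 0.05 over all genes tested. Akr1c3 had 0 counts in every retina library and 8.96 CPM in posterior eye, at least 1330-fold higher by a floor of 3 counts over the retina libraries together, and the median is 1.07 with it at that bound too.

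Cholesterol carriers were split. Stard3, of late endosomes, was higher in posterior eye at 85.7 CPM against 49.2 CPM in retina (0.80), as were Stard5 (1.43), Dbi (0.93), the acyl-CoA binding protein that is also a ligand of Tspo, and Atad3a (0.16). Stard4, a soluble cholesterol carrier, was lower in posterior eye at 19.4 CPM against 42.3 CPM in retina (-1.17), as was Stard6 (-0.45), while Acbd3 (0.03) and Vdac1 (0.00) were not called. All 5 electron-transfer genes were called. Fdx1, the ferredoxin that feeds electrons to the side-chain cleavage enzyme, was higher in posterior eye (1.07), and its reductase Fdxr was lower (-0.34). Por (1.09), Cyb5a (2.37) and H6pd were higher.

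Of the other dehydrogenases and reductases, 14 were tested, with 9 called higher and 3 lower in posterior eye. Hsd17b2, which inactivates oestradiol, averaged 6.41 CPM in posterior eye and 0.0114 CPM in retina. Its posterior eye libraries varied widely, from 0.181 to 34.5 CPM with an SD of 8.99. The aldo-keto reductases Akr1c14, at 30.0 CPM against 0.406 CPM in retina (6.19), and Akr1c15, at 60.5 CPM against 1.31 CPM (5.50), were also far higher in posterior eye, and Akr1c19 (0.37) slightly so. Hsd3b7 of bile acid synthesis (2.37), Srd5a3 (1.26), Hsd17b7 of cholesterol synthesis (1.23) and Hsd17b1, which makes oestradiol (0.43), were higher too. Srd5a2, the other steroid 5-alpha reductase, went the opposite way at 0.0507 CPM in posterior eye and 1.98 CPM in retina, with Hsd17b13 (-0.99) and Hsd17b8 (-0.17) also lower in posterior eye. Hsd17b14 (-0.18) was not called.

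Conjugation and hydroxylation genes were also mostly higher in posterior eye. Sult1a1 (3.00) and Sult2b1 (2.31), which add sulfate to phenols and sterols, were higher in posterior eye. Sts, the sulfatase that frees steroids from their sulfates, was lower at 23.3 CPM in posterior eye against 68.04 CPM in retina (-1.55). Cyp27a1 (2.99), Cyp7b1 (1.62), Cyp1b1 (0.56) and Cyp1a1 (5.61) were higher in posterior eye, and Cyp46a1, the cholesterol hydroxylase of neurons, was lower at 8.85 CPM against 48.1 CPM in retina (-2.45). Nr5a2, a nuclear receptor that activates steroid enzyme genes, was higher at 0.869 CPM in posterior eye against 0.0599 CPM in retina (3.88). Nr5a1, the steroidogenic factor of gonad and adrenal, averaged 0.0359 CPM in posterior eye and 0.0674 CPM in retina and did not pass the filter. Cyp17a1, which makes androgen precursors, averaged 1.89 CPM in posterior eye with a highest library of 16.2 CPM, was at 0 in every retina library and did not pass the filter either. Cyp11b1, Cyp11b2, Hsd3b1 and Hsd3b2 were not among the gene names shared by both tissues, so they were not analysed here.

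Ovariectomy in the posterior eye was asked of each age separately. In young animals 2 of the 9 genes, Hsd11b1 and Hsd17b12, had an unadjusted p under 0.05 and lower values after OVX, but neither passed the adjustment (adjusted p = 0.725 for both, edgeR quasi-likelihood test), and 0.0061% of the 16401 genes tested were called in that contrast. In aged animals none of the 9 had an unadjusted p under 0.05, and 0% of genes were called. For the mean over both ages, Hsd11b1 and Hsd17b12 again had an unadjusted p under 0.05, none of the 9 was called and 0% of genes were called. Neither DESeq2 nor limma-voom called any of the 9 in these contrasts, while DESeq2 called 10 genes in young animals, 27 in aged animals and 67 for the mean over both ages, out of all it tested, and limma-voom called 1, 0 and 0. At an unadjusted p under 0.05 edgeR had 1023, 422 and 938 genes in the same order.

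Hsd11b1 in young posterior eye had a lowest, median and highest level of 15.8, 18.5 and 34.7 CPM in OVX animals, against 11.4, 50.1 and 132.9 CPM in sham animals. All 6 OVX libraries were below the sham median, but the groups overlapped because 2 sham libraries were lower than every OVX library. The means were 20.5 ± 7.12 CPM in young OVX and 56.7 ± 47.3 CPM in young sham animals (SD, n = 6 each), a log2 fold change of -1.47 ± 0.58 (SE) with a 95% interval of -2.66 to -0.27. In aged animals the lowest, median and highest levels were 10.7, 26.4 and 72.6 CPM after OVX, against 18.7, 38.9 and 108.5 CPM after sham surgery, with a log2 fold change of -0.37 ± 0.57 (adjusted p = 0.99988).

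Hsd17b12 in young posterior eye had 52.04, 57.6 and 86.0 CPM as lowest, median and highest level in OVX animals, against 61.7, 76.3 and 135.8 CPM in sham animals. The OVX libraries lay lower for the most part, and the groups overlapped. The log2 fold change was -0.47 ± 0.18 with a 95% interval of -0.85 to -0.09. In aged animals the OVX libraries lay close together, from 60.96 to 69.5 CPM, within the range of 52.9 to 112.7 CPM of the sham libraries, with a log2 fold change of -0.19 ± 0.18.

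**Figure D2:**
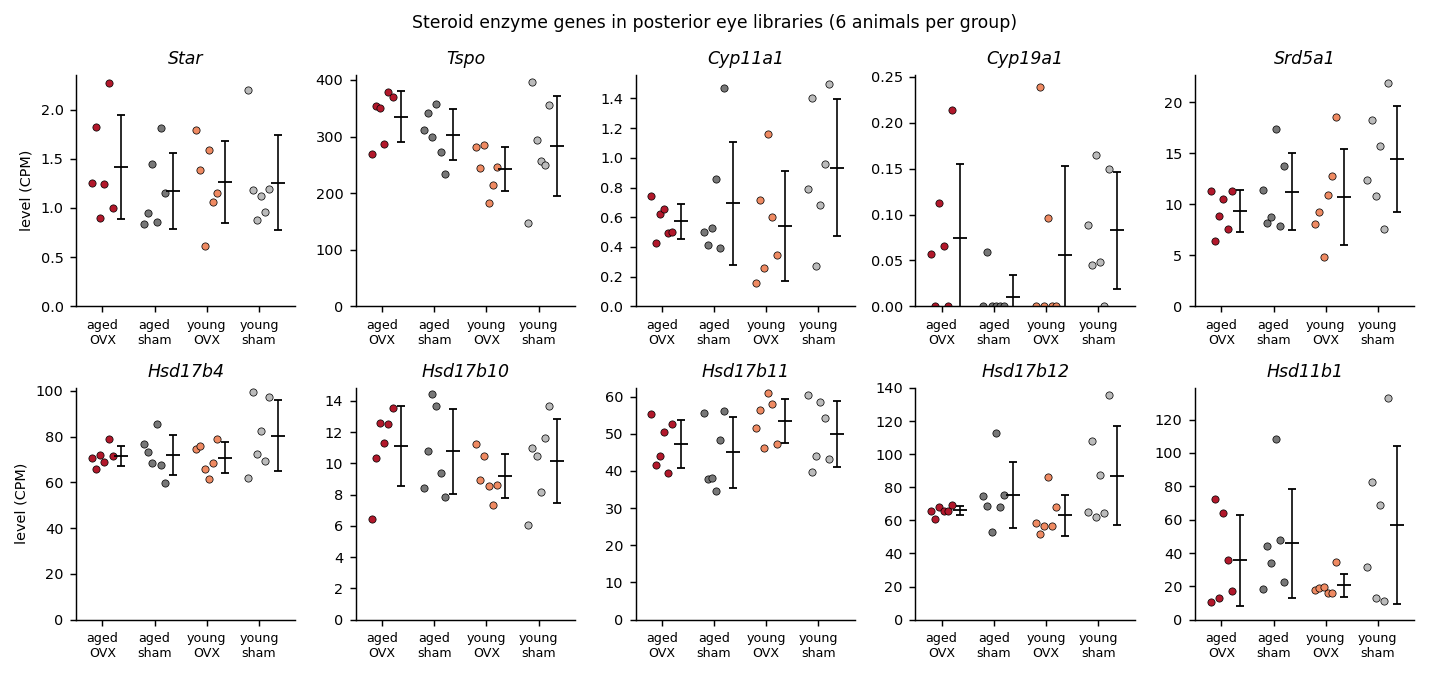
Levels (CPM, linear axes from 0) of the 10 genes in posterior eye, 1 point per animal, 6 animals in each of aged OVX, aged sham, young OVX and young sham, with the mean and SD beside the points; bars are cut at 0. Hsd11b1 and Hsd17b12 spread most widely in sham groups, where single libraries reach 132.9 and 135.8 CPM, and Cyp19a1 stays under 0.24 CPM.

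The highest levels of Hsd17b12 were in libraries rich in gland lipid genes, and those of Hsd11b1 were so in part. Summed gland markers were over 100 CPM in 5 of the 24 posterior eye libraries, those of young sham animals 2, 4 and 6, young OVX animal 10 and aged sham animal 16, and none of aged OVX animals. In the other 19 the sum was 72.1 CPM or less. In the order just given, those 5 libraries had 82.4, 68.6, 132.9, 16.1 and 108.5 CPM of Hsd11b1. Aged OVX animals 20 and 22, with gland sums of 35.8 and 21.1 CPM, had 72.6 and 64.2 CPM of it. The 5 gland-rich libraries had 108.1, 87.6, 135.8, 86.0 and 112.7 CPM of Hsd17b12, the highest 5 values of the tissue. Srd5a1, which oil glands of the skin are known to express, had 18.2, 15.8, 21.9, 11.0 and 17.4 CPM in them, with 18.6 CPM in young OVX animal 12, whose gland sum was 37.8 CPM.

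**Figure D3:**
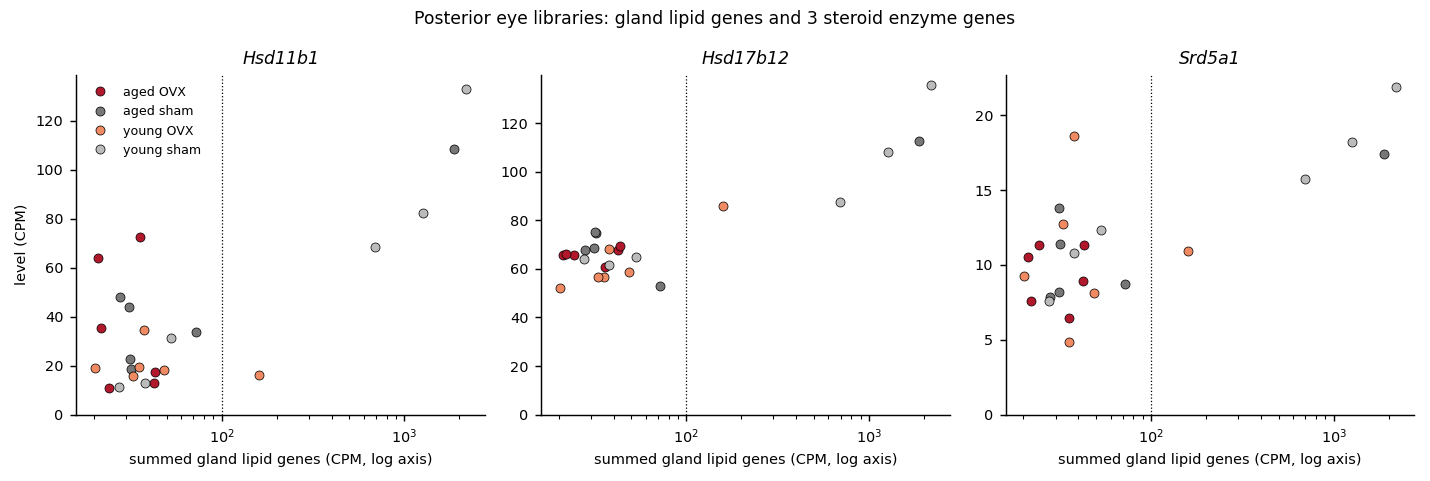
Level (CPM) of Hsd11b1, Hsd17b12 and Srd5a1 against the summed gland lipid genes (CPM, log axis) in the 24 posterior eye libraries, 1 point per animal, coloured by group; the dotted line is at 100 CPM. The 4 sham libraries right of the line hold the highest Hsd17b12 values, from 87.6 to 135.8 CPM, and all but 1 of the libraries over 68 CPM of Hsd11b1 are among them. Left of the line, aged OVX animals 20 and 22 have 72.6 and 64.2 CPM of Hsd11b1.

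Leaving out the 5 libraries, a choice made after the marker levels were seen, turned the young Hsd11b1 value to 0.22 ± 0.57 and shrank the Hsd17b12 value to -0.11 ± 0.09, with 5 young OVX libraries left against 3 young sham libraries. With the gland level as a covariate in the fit over all 24 libraries, the values were -0.16 ± 0.53 for Hsd11b1 and -0.12 ± 0.10 for Hsd17b12. Over both ages, Hsd11b1 went from -0.92 ± 0.40 to 0.03 ± 0.36 with the covariate and 0.15 ± 0.37 without the 5 libraries. Hsd17b12 went from -0.33 ± 0.13 to -0.07 ± 0.07 and -0.08 ± 0.06 in the same order. In aged animals Hsd11b1 was 0.21 ± 0.45 with the covariate. Srd5a1 in young posterior eye, at 10.8 ± 4.69 CPM in OVX and 14.4 ± 5.21 CPM in sham animals (-0.43 ± 0.28), moved to 0.07 ± 0.32 without those libraries. Hsd17b4, at 70.8 ± 6.63 CPM in OVX and 80.4 ± 15.4 CPM in sham animals (-0.18 ± 0.10), moved to 0.11 ± 0.09. Tspo in young animals (-0.23 ± 0.17) moved to 0.15 ± 0.19. With the gland covariate these 3 genes stayed below 0, at -0.05 ± 0.27 for Srd5a1, -0.04 ± 0.09 for Hsd17b4 and -0.07 ± 0.18 for Tspo. Within the 19 libraries under the limit, no gene of the 9 had a called relation with the gland level over 36 relations computed (adjusted permutation p from 0.53 to 0.964 for Pearson's r). Their gland sums ran only from 20.2 to 72.1 CPM, so a relation over the wider range cannot be read from them. The relation over all 24 libraries was not computed.

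The other tested genes of young and aged posterior eye gave no OVX difference that could be told from the spread between animals. Tspo averaged 334.9 ± 45.5 CPM in aged OVX, 302.8 ± 45.2 CPM in aged sham, 242.4 ± 38.8 CPM in young OVX and 283.7 ± 88.1 CPM in young sham animals. Its log2 fold change after OVX was 0.15 ± 0.17 in aged and -0.23 ± 0.17 in young animals. Cyp11a1 averaged 0.573, 0.695, 0.540 and 0.934 CPM in the same order of groups, from 3 to 31 counts per library, and its young OVX value of -0.79 ± 0.43 had a 95% interval of -1.67 to 0.10. Star averaged 1.42, 1.18, 1.26 and 1.26 CPM, and its OVX values were 0.26 ± 0.29 in aged and 0.03 ± 0.29 in young animals. Hsd17b10 averaged 11.1, 10.8, 9.20 and 10.2 CPM, and Hsd17b11 averaged 47.3, 45.1, 53.4 and 50.004 CPM, with OVX values within 0.15 of 0 on the log2 scale for both genes at both ages. A change of Hsd17b11 outside -0.21 to 0.34 in aged, or outside -0.18 to 0.37 in young animals, lay outside the 95% interval.

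Across the 9 genes in young posterior eye, 2 lay above 0 and 7 below after OVX, with a median of -0.23 against -0.01 over all genes. Of all 16401 genes tested there, 8667 lay below 0 and 1023 had an unadjusted p under 0.05. Of the 36 wider pathway genes tested there, 27 lay below 0 and none was called, with 8 at an unadjusted p under 0.05 and a median of -0.07. With the gland covariate 23 lay below and 13 above 0, with a median of -0.03, and without the 5 gland-rich libraries 16 lay below and 20 above 0, with a median of 0.05. The 3 pathway genes with the smallest p for OVX over both ages, given as values, were Cyp1a1, which hydroxylates oestradiol, at 3.00 CPM after OVX and 7.35 CPM after sham surgery (-1.41 ± 0.41, adjusted p = 0.665), Hsd17b14 at 0.609 and 3.04 CPM (-2.16 ± 0.66, adjusted p = 0.679) and Stard4 at 14.5 and 22.5 CPM (-0.61 ± 0.22, adjusted p = 0.729). Without the gland-rich libraries these became -0.41 ± 0.38, 0.06 ± 0.38 and -0.21 ± 0.16 in turn.

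In the retina the OVX contrasts called none of the 9 genes. The called share was 0.0194% of 15481 genes in young animals, 0.00646% in aged animals and 0.0517% for the mean over both ages. Tspo in young animals was the single gene of the 9 with an unadjusted p under 0.05 in these contrasts. Over all 15481 genes, 1807 had such a p in young animals, 1001 in aged animals and 1678 for the mean over both ages. DESeq2 and limma-voom called none of the 9 either.

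Retinal Tspo had 4.70, 5.10 and 7.48 CPM as lowest, median and highest level in young OVX animals, against 2.72, 4.21 and 5.49 CPM in young sham animals. All 6 OVX libraries were above the sham median, and the groups overlapped between 4.70 and 5.49 CPM. The means were 5.42 ± 1.05 CPM in young OVX and 4.20 ± 1.22 CPM in young sham animals (SD, n = 6 each), a log2 fold change of 0.36 ± 0.17 (adjusted p = 0.408). In aged animals the means were 5.29 ± 1.11 CPM after OVX and 5.90 ± 0.863 CPM after sham surgery (-0.17 ± 0.17, adjusted p = 0.915). The difference between the aged and the young OVX effect was -0.53 ± 0.24 (adjusted p = 0.778), in a contrast that called 0.0452% of genes.

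Markers of pigment epithelium and melanocytes differed between the same retina groups. The mean log2 CPM of the pigment epithelium list was 4.15 ± 0.25 in aged OVX, 4.95 ± 0.45 in aged sham, 5.06 ± 0.27 in young OVX and 4.44 ± 0.31 in young sham retinas (SD, n = 6 each). That of the melanocyte list was 2.27 ± 0.41, 2.53 ± 0.45, 2.98 ± 0.63 and 2.12 ± 0.55 in the same order of groups. For OVX at each age, both lists thus differed in the same direction as Tspo. Over the 24 retina libraries, Tspo had a Pearson's r of 0.20 with the pigment epithelium level and a Spearman's rho of 0.24. Neither was called (adjusted permutation p = 0.761 and 0.584). When the fit held a term for the pigment epithelium level, the Tspo value was 0.38 ± 0.22 in young and -0.19 ± 0.24 in aged animals, and their difference was -0.57 ± 0.38. The values were about as large as without it and their SEs wider, so that the unadjusted p was 0.0923 in young animals, against 0.042 without the covariate, and 0.154 for the difference, against 0.0366. The part of melanocytes was not tested.

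The retinal members with the most reads were steady. Hsd17b11 averaged 100.8 ± 3.64 CPM in aged OVX, 100.9 ± 6.12 CPM in aged sham, 98.6 ± 3.36 CPM in young OVX and 100.5 ± 3.91 CPM in young sham animals. Its OVX values were 0.00 ± 0.04 in aged and -0.03 ± 0.04 in young animals, with 95% intervals of -0.08 to 0.08 and -0.11 to 0.05. Hsd17b12 averaged 112.7 ± 5.53, 115.6 ± 9.60, 120.6 ± 3.8045 and 116.6 ± 3.12 CPM in the same order of groups, and Hsd17b4 averaged 52.1 ± 2.22, 54.9 ± 2.40, 56.5 ± 4.03 and 55.9 ± 1.76 CPM. Neither had an OVX value beyond 0.08 on the log2 scale. Srd5a1 averaged 16.4 ± 3.00, 16.2 ± 2.25, 16.9 ± 2.81 and 17.6 ± 1.84 CPM, with OVX values of 0.02 ± 0.12 in aged and -0.07 ± 0.12 in young animals.

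Retinal members with fewer reads gave wider intervals. Hsd17b10 averaged 2.13 ± 0.861 CPM in aged OVX, 1.99 ± 0.485 CPM in aged sham, 2.09 ± 0.363 CPM in young OVX and 1.54 ± 0.315 CPM in young sham animals. Its young OVX value was 0.43 ± 0.22 with a 95% interval of -0.02 to 0.88. Cyp11a1 averaged 1.64 ± 0.147, 1.94 ± 0.468, 1.28 ± 0.238 and 1.55 ± 0.459 CPM in the same order of groups. Its OVX values were -0.24 ± 0.19 in aged and -0.30 ± 0.19 in young animals, and -0.27 ± 0.14 over both ages (adjusted p = 0.488). Star averaged 3.09 ± 0.354, 3.12 ± 0.873, 3.08 ± 0.240 and 3.51 ± 0.577 CPM, and Hsd11b1 averaged 0.769 ± 0.208, 0.798 ± 0.311, 0.697 ± 0.211 and 0.770 ± 0.323 CPM, from 6 to 30 counts per library.

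**Figure D4:**
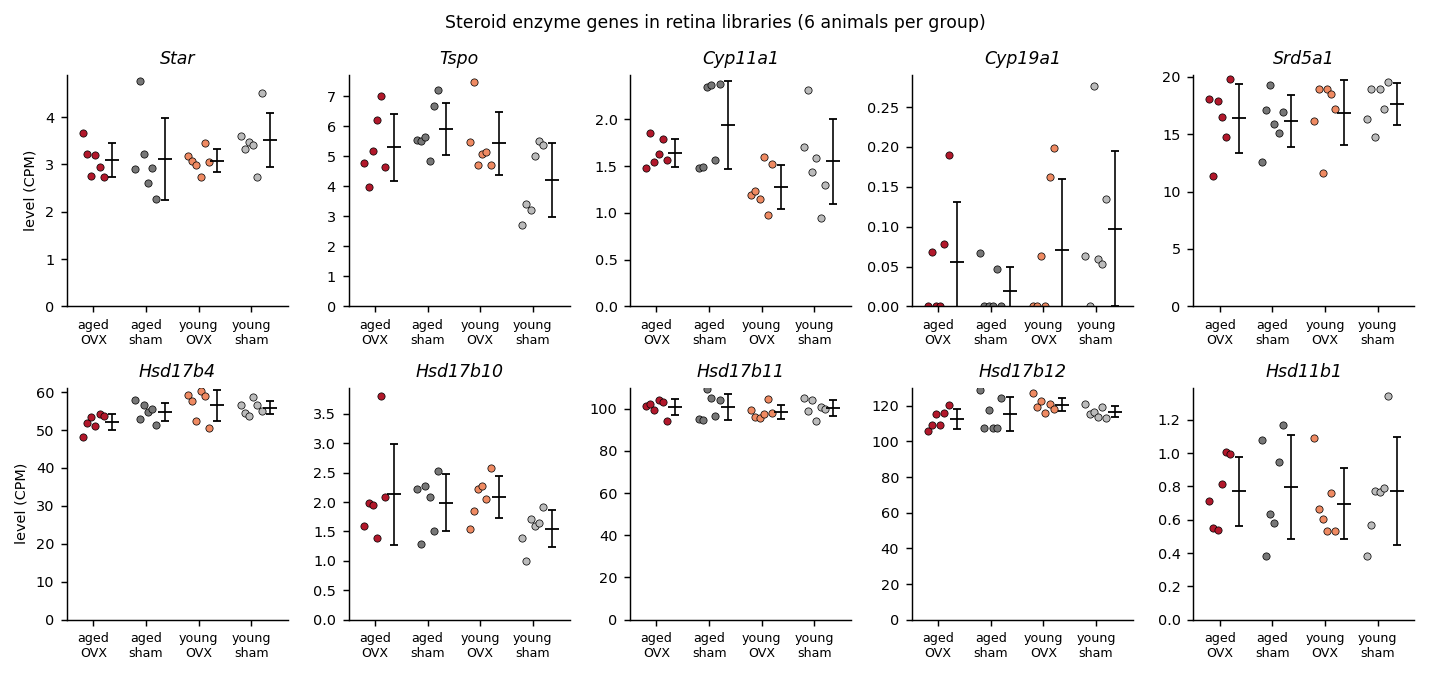
Levels (CPM, linear axes from 0) of the 10 genes in retina, 1 point per animal, 6 animals in each of aged OVX, aged sham, young OVX and young sham, with the mean and SD beside the points; bars are cut at 0. Hsd17b11 and Hsd17b12 vary little around 100 and 116 CPM, and the young sham points of Tspo reach lowest, to 2.72 CPM.

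Of 32 wider pathway genes tested in the retina, 18 lay above and 14 below 0 for OVX over both ages, none was called and 7 had an unadjusted p under 0.05, as did 1678 of the 15481 genes tested. The 3 with the smallest p were Stard5 at 3.21 CPM after OVX and 3.83 CPM after sham surgery (-0.25 ± 0.09, adjusted p = 0.314), Hsd17b1 at 1.29 and 0.976 CPM (0.42 ± 0.16, adjusted p = 0.316) and H6pd at 5.65 and 6.60 CPM (-0.23 ± 0.08, adjusted p = 0.317). The median was 0.01 on the log2 scale.

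**Figure D5:**
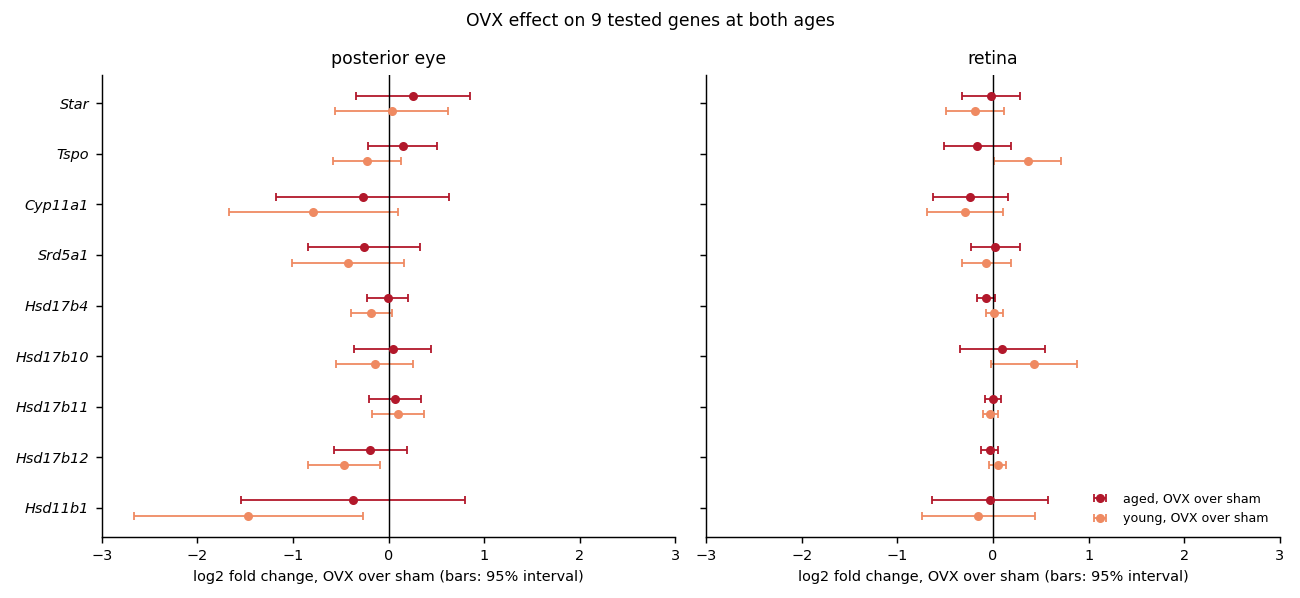
Log2 fold change of OVX over sham with its 95% interval for the 9 tested genes, posterior eye at left and retina at right, aged animals above young animals in each pair. Intervals are widest for posterior eye Hsd11b1, -2.66 to -0.27 in young animals, and narrowest for retinal Hsd17b11; no gene was called.

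The OVX effect did not differ between tissues for any of the 9 genes at an adjusted p under 0.05, where 0.00583% of 17153 genes were called. Hsd17b12 had the smallest p, with an OVX effect over both ages of -0.32 ± 0.14 in posterior eye minus retina (adjusted p = 0.977), and it was the single gene of the 9 with an unadjusted p under 0.05. Over all 17153 genes, 848 had such a p. Its OVX value over both ages was 0.01 ± 0.03 in retina and -0.33 ± 0.13 in posterior eye. The posterior eye value was -0.07 ± 0.07 with the gland covariate and -0.08 ± 0.06 without the gland-rich libraries. No fit across tissues held the gland level. DESeq2 and limma-voom called none of the 9 for the tissue difference of the OVX effect.

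Age was compared within each surgery group. None of the 9 genes was called in posterior eye, where 0% of genes were called for aged against young sham animals, 0% for aged against young OVX animals and 0% for the interaction of OVX and age. Unadjusted p-values under 0.05 numbered 481, 1663 and 487 genes in that order, DESeq2 called 5, 93 and 0 genes, and limma-voom called 0, 1 and 0. In the retina none of the 9 was called either, where 0.0388% of genes were called for aged against young sham and 0.0711% for aged against young OVX animals. Of the 9 genes, the number with an unadjusted p under 0.05 was 0 for sham and 1 for OVX animals in posterior eye, and 1 for sham and 2 for OVX animals in retina. Over all 15481 genes tested in retina, 1656 had such a p for sham and 1429 for OVX animals. DESeq2 and limma-voom called none of the 9 in these contrasts.

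Over the age contrasts, Tspo had the smallest p of the 9 genes in each tissue. In retina of sham animals it had 4.85, 5.59 and 7.19 CPM as lowest, median and highest level in aged animals, against 2.72, 4.21 and 5.49 CPM in young animals. All 6 aged libraries were above the young median, and the groups overlapped. The log2 fold change was 0.49 ± 0.17 (adjusted p = 0.287), and within OVX animals it was -0.04 ± 0.17. The pigment epithelium list, whose retinal levels are given above, was higher in aged than in young sham retinas and lower in aged than in young OVX retinas. With it as a covariate the Tspo values were 0.50 ± 0.20 within sham and -0.07 ± 0.26 within OVX animals. In posterior eye of OVX animals Tspo had 269.6, 352.5 and 378.1 CPM in aged animals, against 183.4, 245.0 and 284.4 CPM in young animals. Again all 6 aged libraries were above the young median, with a log2 fold change of 0.47 ± 0.17 (adjusted p = 0.367), and within sham animals it was 0.09 ± 0.17. Without the 5 gland-rich libraries the value within sham animals was 0.36 ± 0.19 for posterior eye Tspo, and for Hsd11b1 it was 0.87 ± 0.58, against -0.30 ± 0.56 with all libraries; none was called.

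Other age values stayed under the threshold. In retina of OVX animals Hsd17b4 had 48.3, 52.7 and 54.3 CPM as lowest, median and highest level in aged animals, against 50.5, 58.3 and 60.3 CPM in young animals, with all 6 aged libraries below the young median (-0.12 ± 0.04, adjusted p = 0.416). Hsd17b12 was -0.10 ± 0.04 in the same contrast (adjusted p = 0.491). Cyp11a1 was above the young median in 6 of 6 aged OVX retinas and in 4 of 6 aged sham retinas, with log2 values of 0.37 ± 0.20 and 0.31 ± 0.19 that were not called (adjusted p = 0.582 and 0.562). Retinal Star in sham animals was -0.17 ± 0.15 in aged against young, and -0.34 ± 0.13 (adjusted p = 0.304) without aged sham animal 14, whose 4.78 CPM was the highest of its group.

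Across libraries of a tissue, 3 relations with cell type markers passed the adjustment over the 36 computed, by permutation with 100000 resamples. Libraries of the 4 groups were shuffled together, so differences between groups and between animals within a group both enter these p-values. In posterior eye Hsd17b11 went up with the rod genes, with a Pearson's r of 0.77 and a Spearman's rho of 0.81 over 24 libraries (raw permutation p = 2e-05 and 1e-05, the second the smallest possible here; adjusted p = 0.00072 and 0.00036), and r was 0.85 without the 2 libraries farthest from the rod median. Tspo went down with the rod genes, with r = -0.60 and rho = -0.69 (raw permutation p = 0.00149 and 0.00021; adjusted p = 0.0179 and 0.00378), and r = -0.67 without those 2. With the rod level as a covariate none of the 9 genes was called in any posterior eye contrast.

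In retina Tspo went up with the markers of macrophages and microglia, with r = 0.72 and rho = 0.61 over 24 libraries (raw permutation p = 0.0001 and 0.00211; adjusted p = 0.0018 and 0.019), and r = 0.70 without the 2 libraries farthest from the median. The relation used the mean log2 CPM of that list. It was 2.40 ± 0.11 in aged OVX, 2.39 ± 0.14 in aged sham, 2.44 ± 0.18 in young OVX and 2.25 ± 0.19 in young sham retinas (SD, n = 6 each). Young sham retinas were thus lowest in it, as they were in mean Tspo. The summed level of that list ran from 51.98 to 62.03 CPM in aged OVX, 53.1 to 67.2 CPM in aged sham, 51.5 to 71.04 CPM in young OVX and 51.8 to 62.3 CPM in young sham retinas. Its part in the young and aged Tspo values was not tested. Posterior eye Hsd17b10 had r = -0.55 with the rod genes (raw permutation p = 0.0057, adjusted p = 0.0513) and rho = -0.60 (adjusted p = 0.019), so it passed by rank and not by Pearson's r.

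The genes most like each member, by Pearson's r of log2 CPM over the 24 libraries of the tissue where the member was more abundant, are given as a description of libraries that share depth and cell makeup. Tspo was most like Pdlim2 (0.93) and Anxa7 (0.92) in posterior eye. Hsd17b10 was most like the ribosomal protein genes Rps27 (0.94) and Rps21 (0.89), Hsd17b4 like Cldn1 (0.88) and Abhd5 (0.88), and Hsd11b1 like Ggct (0.81) and Pank1 (0.79). In retina Hsd17b12 was most like Snrpc (0.81) and Atp5mf (0.73), Hsd17b11 like Cdc5l (0.74) and Ddx52 (0.73), and Srd5a1 like Tubb2b (0.72) and Cyp4f6 (0.66). Star, Cyp11a1 and Cyp19a1 were under the 5 CPM needed for this reading.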

How the data were processed

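The values deposited by the authors are raw counts of reads per gene, in 1 table for each tissue. Per the labels' protocols, SMART-Seq cDNA from total RNA was fragmented with Nextera XT and sequenced in paired ends on a NovaSeq. No strand-marking step is described, so reads of overlapping and antisense genes cannot be told apart. The submitters' processing notes name STAR 2.7.3a, HTSeq, DESeq2 and the build Rnor_6.0. Which annotation and counting options were used is not given in the sources used here. For posterior eye, 25 gene names were calendar dates. None was a member, and 32858 names shared by both tables entered the fit across tissues.

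Groups and animals came from the library titles. Counts were filtered with filterByExpr (minimum count 10) and scaled by TMM, leaving 16401 genes in posterior eye, 15481 in retina and 17153 across tissues. They were tested with edgeR 4.0.16 in R 4.3.3: a quasi-likelihood F test with 1 mean per group over the 24 libraries of a tissue, or over all 48 for tissue contrasts, two-sided, with Benjamini-Hochberg adjustment over all genes tested. Each SE is the absolute log2 fold change over the square root of F. Correlations used log2 CPM with a prior count of 2. The scripts were tested on simulated data. Alternatives were DESeq2 1.42.0, limma-voom (limma 3.58.1), RLE scaling, no filter, 2 groups alone, marker covariates, each library left out in turn and the animal as a block.

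All 10 members are reported. Of the pathway list, every gene called in any contrast is named, except 1 that is not reported here, and for OVX the 3 with the smallest p in each tissue. The like genes are the 2 highest by r among genes of at least 5 CPM. The members and lists were chosen with earlier results of these data known. Both tissues came from the same animals by the labels, which makes the animal number a pairing. Over 24 such pairs the correlation of deviations from the group means ran from -0.06 to 0.24, with 6 over 0.1. No 2 libraries of a tissue held identical values. Promoter windows were read from the RefSeq table of build GRCr8.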

Additional observations from a re-analysis of the deposited data

Results flagged for a closer look

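In 7 of 80 groups of 6 libraries, a single library stood apart by Dixon's criterion. Chance meets it in about 1 of 20 groups of independent, normally spread values. The groups here share libraries and include counts near 0, so 7 of 80 cannot be read against that rate. In posterior eye, aged sham animal 16 had 108.51 CPM of Hsd11b1, where the next highest of its group had 47.9, and 112.68 CPM of Hsd17b12, where the next had 75.3. The same library had summed gland markers of 1881 CPM. Young OVX animal 12 had 34.736 CPM of Hsd11b1, above 19.5 CPM in the next library of its group. Young sham animal 1, the posterior eye library with the lowest total, had 2.2035 CPM of Star from 25 counts, above 1.20 CPM in the next. Aged sham animal 14 had 0.059119 CPM of Cyp19a1, which is 1 count where the other libraries of its group had 0. In retina, young OVX animal 8 had 7.4772 CPM of Tspo, above 5.46 CPM in the next, and aged OVX animal 23 had 3.8034 CPM of Hsd17b10 from 49 counts, above 2.08 CPM in the next. No member had all OVX libraries on one side of sham in one age and on the other side in the other age.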

How the results depend on the processing

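The 9 calls between posterior eye and retina were made again under DESeq2, RLE scaling, no filter, limma-voom, without each animal in turn and with the animal as a block, where the pairing gave 9 calls among the members, and 0 members were called in every contrast of surgery and age under each alternative run. The block changed no other call. Over all genes, DESeq2 called 10, 27 and 67 for OVX in young, aged and both ages of posterior eye and 5 and 93 for age in sham and OVX posterior eyes, against 1, 0, 0, 0 and 0 by edgeR, and 63, 9 and 48 for OVX in young, aged and both ages of retina, 68 and 67 for age in sham and OVX retinas, 22 for the retinal interaction and 25 for the tissue difference of the OVX effect, against 3, 1, 8, 6, 11, 7 and 1 by edgeR. With the pigment epithelium covariate the first 6 became 0, 0, 0, 0, 2 and 0. The rod covariate gave 6 calls for OVX in young posterior eye, the fit of 2 groups alone gave 0 there and 17 for age in OVX retinas, the gland covariate and the fit without gland-rich libraries gave 0 in every posterior eye contrast, limma-voom gave 0 for OVX in aged retinas, and no filter gave 0 for OVX in young retinas. Without 1 library at a time, genes called in a retinal contrast ran from 0 to 36 and in a posterior eye contrast from 0 to 5. Member values moved by more than their SE in 12 cases with the gland covariate, 19 without the gland-rich libraries, 6 with the pigment epithelium covariate and 5 without a single library. Among the last, retinal Star for OVX in aged animals became 0.15 without aged sham animal 14, retinal Hsd17b10 became -0.13 without aged OVX animal 23, and posterior eye Hsd17b12 for age in sham animals became -0.02 without young sham animal 6. The cause was not tested. Genes with few counts, Cyp19a1 foremost, limit what can be seen.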
